A study of Mus musculus with 9 samples.

Results

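The 8 genes described here encode the subunits of the chaperonin TRiC (also called CCT), the ring-shaped folding machine of the eukaryotic cytosol. They are Tcp1, Cct2, Cct3, Cct4, Cct5, Cct6a, Cct7 and Cct8. The members were chosen by gene symbol, and their Ensembl IDs were matched to the count table, which lists 55487 genes. All 8 were found, and all 8 passed the filter on low counts together with 14851 genes in total.

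RNA was sequenced from whole gastrocnemius muscle of wild-type C57BL/6 mice (given as C57BL/6J in the study's text), with 4 Control, 2 Unloading and 3 Reloading libraries. Control mice lived in conventional cages. Unloading mice had their hindlimbs lifted off the floor for 10 days. Reloading mice went through the same 10 days and then walked normally for 1 day. All mice are male per the labels, whereas females are described for the unloading in the methods of the study. No transgene, drug or knockout was part of the design, and each library is labelled as a separate sample. Whether each one came from a separate mouse is not stated, so the p-values measure the spread between these libraries.

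TRiC is built from stacked rings in which each of the paralogous subunits takes a fixed place, so that one copy of every subunit is needed per ring. Newly made actin and tubulin are its best known clients, and each reaches its native fold inside the chamber, helped by prefoldin and by phosducin-like proteins. In skeletal muscle the sarcomere is rich in actin, and the folding of its proteins draws on cytosolic chaperones. The comparisons ask whether transcripts of the 8 subunits moved together when load was removed and when it was returned.

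The libraries held between 9252443 and 19612101 read pairs in genes, and the 8 subunits together took 7919 to 16725 of them per library. Values are read pairs per 1000000 (CPM), scaled with trimmed-mean (TMM) factors that correct for unequal composition. That factor was 0.928 to 0.96 in Control and Unloading and 1.106 to 1.131 in Reloading, and the share of read pairs from mitochondrial DNA was 9.36% to 10.60% in Control and Unloading and 6.49% to 6.75% in Reloading. Skin keratin transcripts stood out in Control 2 and Reloading 1, so counts of changed subunits were also taken without these libraries. The fibre markers were high in every library, with a summed level of 8 genes between 108847 and 168586 CPM.

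The promoter sequences of the subunits are shown first for the CCAAT box, a short element common upstream of mammalian genes. Cct3 and Tcp1, which differed most in their response, both hold it, as do Cct6a and Cct7. Whether the box bears on the response was not tested. RefSeq promoter windows on build GRCm38.p6 were at hand for 7 of the 8 subunits, as 9 entries, and the 250 bases before each start were searched on both strands. Cct4 had no entry. Each stretch below is 29 bases long, read 5′ to 3′ on the strand of the gene, with the CCAAT box (or ATTGG, the same box on the other strand) in capitals. The gene and the position stand before each sequence. By the span that the count table gives for each gene, the windows of Tcp1 and Cct6a and 1 of the 2 windows each of Cct2 and Cct5 lie inside the gene.
Cct3, chr3:88297049-88297077, plus strand: ctaatactgtcgATTGGcctatgtttttg
Cct3, chr3:88297090-88297118, plus strand: atgagtttggtgATTGGcggcacttcaga
Cct7, chr6:85451306-85451334, plus strand: ggccagcggctgATTGGccgccacgcctg
Cct7, chr6:85451368-85451396, plus strand: aggccacttcctATTGGccaggagaagtg
Cct7, chr6:85451398-85451426, plus strand: aaccgggcgctgATTGGccaaaactctta
Cct6a, chr5:129787285-129787313, plus strand: cgttggattaagCCAATcagcgggcggca
Cct6a, chr5:129787315-129787343, plus strand: gagggtcgccacCCAATggaggtgctctg
Tcp1, chr17:12916185-12916213, plus strand: atccctggctcaCCAATcaccgcagacgt

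The box began 74 and 33 bases before the start of Cct3, 187, 125 and 95 bases before that of Cct7, 59 and 29 bases before that of Cct6a and 132 bases before that of Tcp1. The windows of Cct2, Cct5 and Cct8 held none. At least 1 box stood in 4 of the 9 subunit entries and in 33.8% of all 32851 promoter entries, and at least 2 stood in 3 of the 9 entries and in 10.1% of all. The heat shock element was searched as GAANNTTC and TTCNNGAA, and 1 such pair of units was found in 1 of the 2 entries of Cct2, the one inside the gene, and in 1 of the 2 entries of Cct5, the one that begins upstream of it, against 12.8% of all entries. Its 3-unit form, in which a further GAA or TTC unit in alternating orientation follows after NN, was found in 0 of the 9 entries and in 0.466% of all. The GC box GGGCGG stood in 8 of the 9 entries, against 32.7% of all, and the E-box CACGTG in 0 of 9, against 6.02%. These motifs were picked after the responses were known, and a match describes letters only.

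On reloading, 7 of the 8 subunit transcripts rose over both other groups. Tcp1 was not called, except against Control when libraries were blocked by the numbers in their descriptions (log2 fold change 0.17, edgeR adjusted p = 0.0327) or scaled by library totals alone. The summed level of the 8 genes was 857, 882, 893 and 894 CPM in the Control libraries, 865 and 904 CPM in the Unloading libraries, and 1108, 1154 and 1213 CPM in the Reloading libraries. Every Reloading library therefore stood above every other library, and the Control and Unloading libraries overlapped. In unscaled terms the 8 genes took 0.0807% to 0.0857% of the read pairs of a Control or Unloading library and 0.1223% to 0.1355% of those of a Reloading library. In whole muscle, more RNA of a gene per cell and more cells that carry it cannot be told apart.

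Cct3 moved most. It encodes the gamma subunit and lies at chr3:88297116-88321767 on the plus strand (GRCm38). Its level was 64.1, 69.3, 63.6 and 71.8 CPM in the Control libraries, 59.1 and 63.5 CPM in the Unloading libraries and 136, 119 and 111 CPM in the Reloading libraries. The lowest Reloading library stood well above the highest of the other 6. The rise over Unloading was 1.99-fold, a log2 fold change of 0.99 ± 0.10 (SE; edgeR quasi-likelihood test, adjusted p = 2.61e-06), and the rise over Control was 1.82-fold (0.86 ± 0.08, adjusted p = 6.85e-07).

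Tcp1, the alpha subunit and the gene after which the complex was named, stood apart in the other way. It lies at chr17:12915701-12925067 on the plus strand. Its level was 142, 127, 123 and 132 CPM in Control, 159 and 140.5 CPM in Unloading, and 146, 143 and 140.5 CPM in Reloading. The Reloading values fell inside the range spanned by the other libraries. The log2 fold change was -0.06 ± 0.08 against Unloading (edgeR, adjusted p = 0.576) and 0.13 ± 0.07 against Control (adjusted p = 0.145).

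The direction of Tcp1 rested on the scaling and on the block by description numbers. With library totals alone and no composition factor, its log2 difference was 0.185 against Unloading (edgeR, adjusted p = 0.0904) and 0.37 against Control (adjusted p = 0.00055), and the median of all tested genes then moved to 0.27 and 0.25. The sample descriptions give Control 2, 3 and 4 the same numbers as Reloading 1, 2 and 3, and what these numbers mark is not stated. In Control and Reloading libraries of equal number, Tcp1 stood at 127 and 146, 123 and 143, and 132 and 140.5 CPM. The share of all genes with the same order was not counted.

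**Figure D1:**
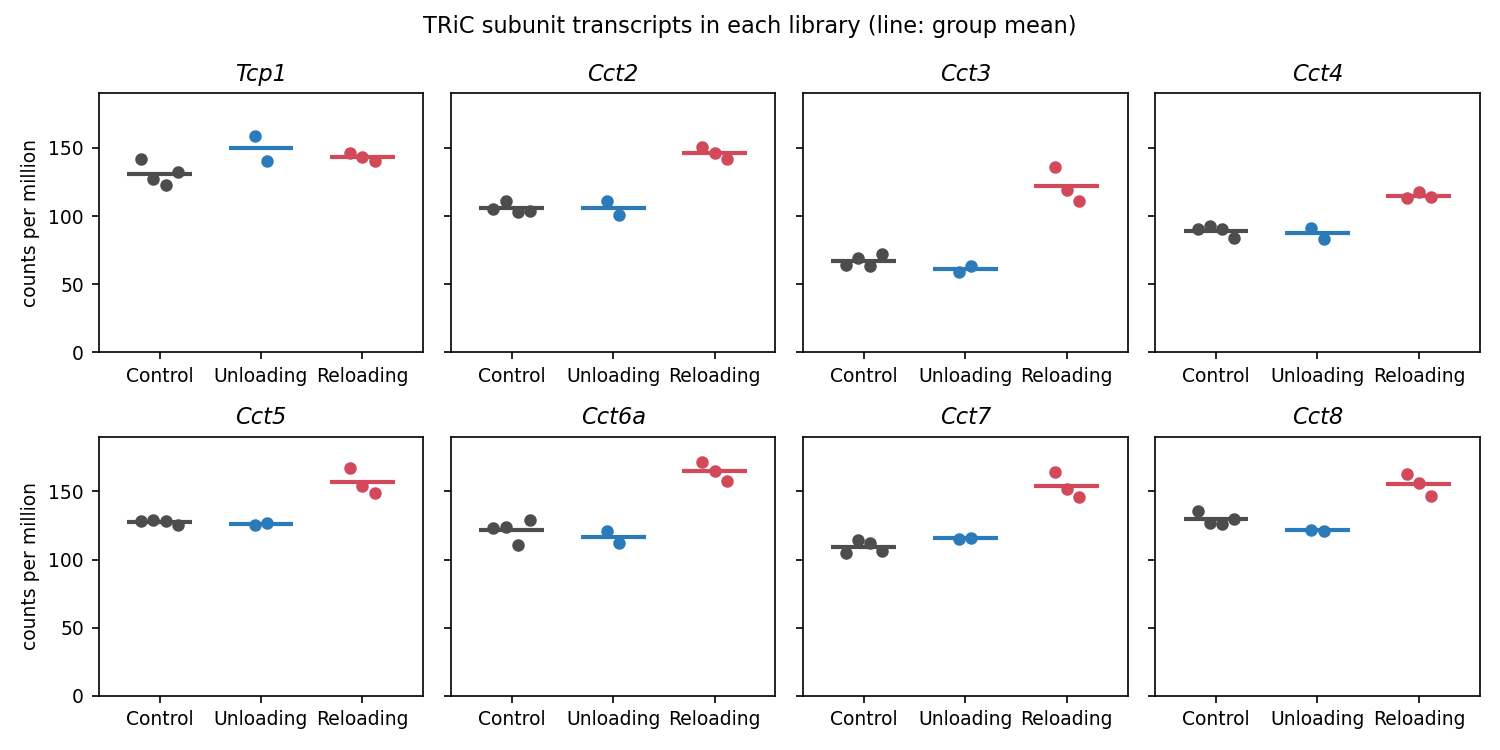
Level of each TRiC subunit transcript in CPM (TMM-scaled, vertical axis from 0) in the 4 Control, 2 Unloading and 3 Reloading libraries, 1 point a library, with a line at the group mean. The Reloading points lie above all others for 7 subunits, most clearly for Cct3 (111 to 136 CPM), while those of Tcp1 (140.5 to 146 CPM) lie among the Control and Unloading points; with library totals alone in place of TMM, or with a block by description numbers, Tcp1 was called higher in Reloading than in Control.

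The remaining 6 subunits rose by smaller and similar amounts. Cct6a, the zeta subunit (chr5:129786998-129846371), stood at 111 to 129 CPM in Control, at 121 and 112 CPM in Unloading and at 172, 165 and 158 CPM in Reloading, a 1.41-fold rise over Unloading (log2 fold change 0.50 ± 0.08 SE, edgeR adjusted p = 0.000267). Cct2, the beta subunit (chr10:117051001-117063814), stood at 103 to 111 CPM in Control, at 111 and 101 CPM in Unloading and at 151, 146 and 142 CPM in Reloading, a 1.38-fold rise (0.47 ± 0.08, adjusted p = 0.000226). For both genes no Reloading library overlapped with the other groups.

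Cct7, the eta subunit (chr6:85451514-85468475), stood at 105 to 114 CPM in Control, at 115 and 116 CPM in Unloading and at 164, 152 and 146 CPM in Reloading, a 1.33-fold rise over Unloading (0.41 ± 0.08, edgeR adjusted p = 0.000781). Cct4, the delta subunit (chr11:22990519-23003780), stood at 83.7 to 92.6 CPM in Control, at 91.1 and 83.3 CPM in Unloading and at 113, 118 and 114 CPM in Reloading, a 1.32-fold rise (0.41 ± 0.08, adjusted p = 0.000796). These genes had near equal log2 changes at different levels.

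Cct8, the theta subunit (chr16:87483326-87495873), stood at 126 to 136 CPM in Control, at 122 and 121 CPM in Unloading and at 163, 156 and 147 CPM in Reloading, a 1.28-fold rise over Unloading (0.35 ± 0.07, edgeR adjusted p = 0.00186). Cct5, the epsilon subunit (chr15:31590800-31601804), stood at 125 to 129 CPM in Control, at 125 and 127 CPM in Unloading and at 167, 154 and 149 CPM in Reloading, a 1.25-fold rise (0.32 ± 0.07, adjusted p = 0.00333). They had the smallest changes among the 7 called subunits, and their groups still did not overlap.

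Counted over the complex, 7 of 8 subunits were higher and 0 were lower in Reloading than in Unloading, where 18.5% of all tested genes were called higher and 19.0% lower. The median log2 fold change was 0.41 over the subunits and 0.03 over all tested genes. The Reloading libraries all lay above the Unloading libraries for 7 of the 8 subunits, as they did for 31.0% of all tested genes. With library totals alone the subunit median was 0.66, the median of all genes 0.27, and the share of called genes that were higher went from 49.3% to 82.8%, while 7 subunits were called higher as before. Without Control 2 and Reloading 1, an alternative added after the data were seen, 7 subunits were called higher with a median of 0.39.

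Against Control, Reloading had again 7 subunits called higher and 0 called lower, beside 22.1% and 21.3% of all tested genes. The folds ran from 1.20 for Cct8 (log2 fold change 0.26 ± 0.06 SE, edgeR adjusted p = 0.00319) to 1.82 for Cct3. Cct7 rose 1.41-fold, Cct2 1.38-fold, Cct6a 1.36-fold, Cct4 1.29-fold and Cct5 1.23-fold. The median was 0.41 beside 0.01 over all tested genes, and 7 subunits had all Reloading libraries above all Control libraries, as had 24.2% of all tested genes. The block by description numbers, like the scaling by library totals alone, called 8 subunits higher. This comparison shares its Reloading libraries with the one above, so the pair are not independent.

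Unloading by itself left the 8 transcripts near their Control levels. By edgeR's quasi-likelihood test 0 of 8 were called higher and 0 lower, where 4.40% of all tested genes were called higher and 5.50% lower, and the DESeq2 Wald test also called 0. The log2 fold changes ran from -0.13 ± 0.09 for Cct3 (adjusted p = 0.388) to 0.19 ± 0.08 for Tcp1 (adjusted p = 0.131), with a median of -0.03. Before adjustment 1 subunit, Tcp1, was under 0.05 in the same fit. With 2 Unloading libraries, differences of this size were not resolved from the spread between libraries. Cct3 and Cct8 had both Unloading libraries below all Control libraries, and Cct7 had both above. Such separation of 2 from 4 libraries was seen for 16.6% of all tested genes downward and 16.4% upward.

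**Figure D2:**
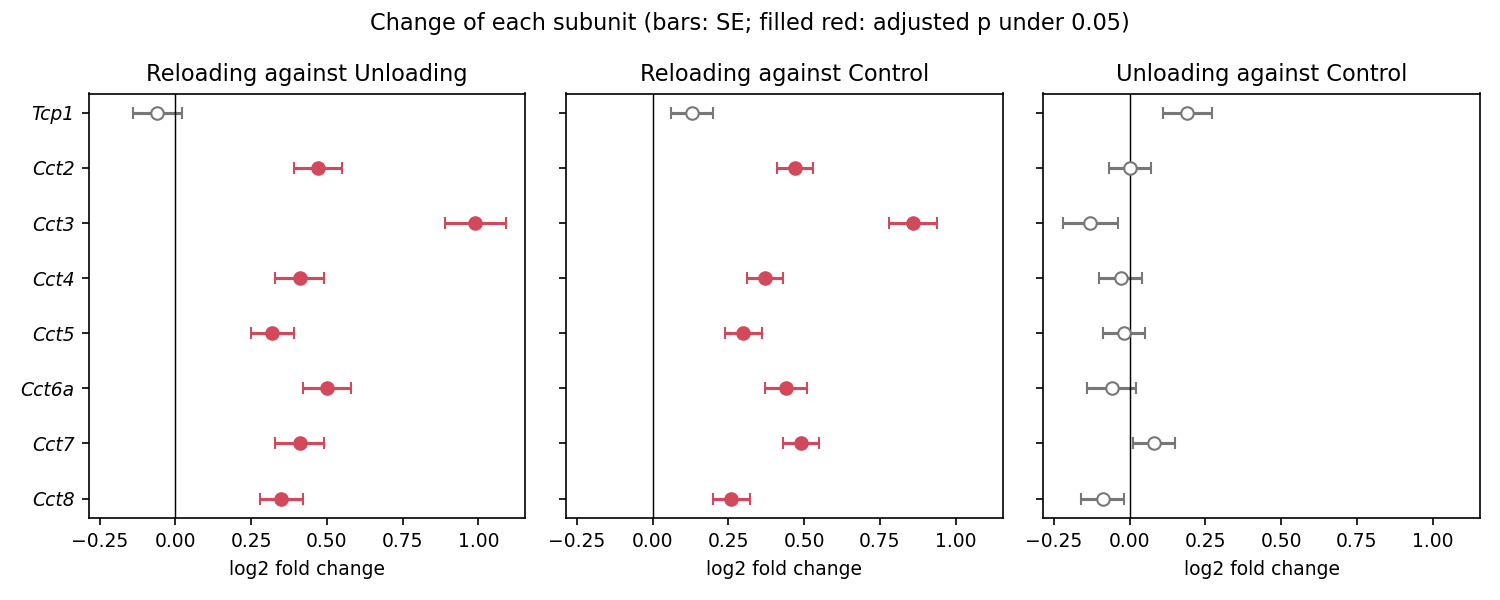
Log2 fold change of each subunit in the 3 comparisons (horizontal axis), with bars of 1 SE from the fit across all genes and filled red points where the adjusted p was under 0.05. In both comparisons with Reloading 7 subunits lie right of 0 with Cct3 farthest out (0.99 and 0.86) and Tcp1 uncalled, and no point is filled for Unloading against Control; with library totals alone, or with the block by description numbers, Tcp1 was called against Control and its difference from Unloading turned positive.

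The unequal response changed the proportions among the transcripts of the 8 subunits. Protein and assembled TRiC were not measured. Tcp1 stood at 1.18 to 1.36 times the geometric mean CPM of the other 7 subunits in the Control libraries, at 1.54 and 1.39 times in the Unloading libraries, and at 0.97, 0.998 and 1.02 times in the Reloading libraries. The 3 groups of libraries did not overlap in this ratio, with Unloading highest and Reloading lowest, though the nearest Control and Unloading libraries stood at 1.36 and 1.39. Cct3 stood at 0.547 to 0.628 times in Control, at 0.495 and 0.561 times in Unloading and at 0.892, 0.811 and 0.782 times in Reloading. For Cct3 the Reloading libraries stood clear of all others, while Control and Unloading overlapped. The share of all genes that separate in such a ratio was not counted.

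These ratios were tested by an edgeR fit over all genes with every library scaled to the other 7 subunits, a fit added after the values had been seen. Most of the scaling subunits had risen on reloading, so a gene with unchanged CPM comes out lower on this scale. Tcp1 and Cct3 had been picked out as the extremes of the same values, and their p-values are a description. Relative to the other 7, Tcp1 fell by 0.55 ± 0.09 (log2, SE) from Unloading to Reloading (edgeR adjusted p = 6.27e-05) and was 0.33 lower than in Control (log2 ratio change -0.33 ± 0.08, adjusted p = 0.00161). On this scale 53.5% and 55.1% of all tested genes were called lower in these comparisons. Without each library in turn, the change of Tcp1 from Unloading to Reloading ran from -0.62 to -0.48.

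The ratio of Cct3 to the other 7 rose by 0.65 ± 0.10 (log2) from Unloading (edgeR adjusted p = 4.39e-05) and by 0.51 ± 0.08 from Control (adjusted p = 5.12e-05), on a scale where 8.17% and 8.71% of all tested genes were called higher. Cct8 was the other subunit called, lower by this measure against Control (log2 ratio change -0.18 ± 0.07, adjusted p = 0.0385), where 53.8% of all tested genes were called lower. Cct2, Cct4, Cct5, Cct6a and Cct7 were not called in any comparison, and their log2 ratio changes against Unloading lay between -0.12 for Cct5 and 0.09 for Cct6a. For Unloading against Control no subunit was called by this measure, with Tcp1 at 0.23 ± 0.09 (adjusted p = 0.119) and Cct3 at -0.14 ± 0.09 (adjusted p = 0.386).

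**Figure D3:**
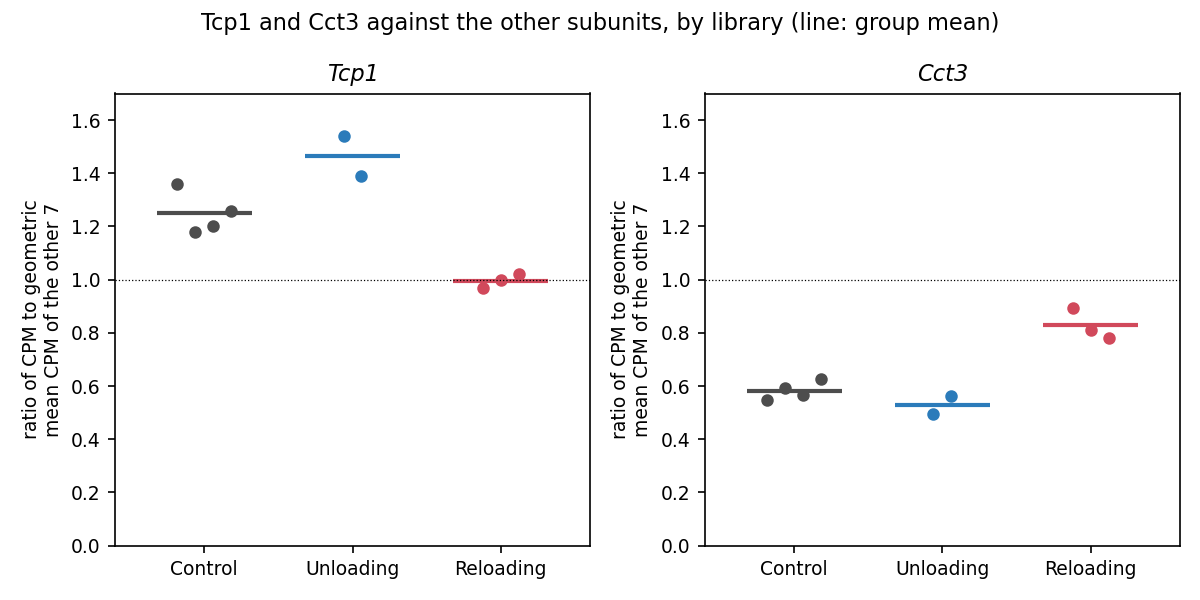
Ratio of the CPM of Tcp1 (left) and Cct3 (right) to the geometric mean CPM of the other 7 subunits, 1 point a library, with lines at the group means and a dotted line at a ratio of 1. Tcp1 falls from 1.39 to 1.54 in Unloading to about 1 in Reloading, and Cct3 rises from 0.495 to 0.561 to between 0.782 and 0.892.

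A second measure, the share of each subunit in the summed level per length, was compared by an exact two-sided permutation test over libraries. With 3 against 2 libraries the smallest p is 0.2, with 3 against 4 it is 0.0571 and with 2 against 4 it is 0.133, so this test could not reach 0.05 in any comparison. The share of Tcp1 was 11.0% ± 0.572 (SD, n = 4, Control), 12.6% ± 0.697 (n = 2, Unloading) and 9.27% ± 0.206 (n = 3, Reloading). Each comparison gave the smallest p its exact test allows, which says only that the groups did not overlap. Cct2, Cct3 and Cct6a also reached it for Reloading against Unloading, and Cct2, Cct3, Cct5, Cct7 and Cct8 for Reloading against Control. For Unloading against Control, Cct8 reached it too, with shares of 16.7% in Unloading and 17.7% in Control. The shares add up to a whole, so they do not move independently. How often shares in other sets of genes separate in this way was not counted. The share of Cct3 was 4.45% ± 0.25 in Control, 4.08% ± 0.343 in Unloading and 6.22% ± 0.386 in Reloading, with Reloading clear of both other groups. Cct4 kept close shares of 8.96%, 8.79% and 8.94% in Control, Unloading and Reloading, and its groups overlapped.

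Across genes, levels were compared as CPM per 1000 bases. With the summed exon length of the count table the order in Control was Cct5 (46.1 ± 0.628 SD), Cct8 (42.0 ± 1.46), Cct2 (41.4 ± 1.29), Cct6a (33.6 ± 2.14), Tcp1 (26.1 ± 1.65), Cct4 (21.2 ± 0.923), Cct7 (16.1 ± 0.649) and Cct3 (10.5 ± 0.632). Cct8 and Cct2 were neighbours that differed by less than their SD. The highest level was 4.37 times the lowest. That length counts every annotated exon, and it came to 6370 bases for Cct3 and 6778 for Cct7, of which GENCODE M21 annotates 5 and 3 transcripts as retained introns.

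With the length of the principal transcript, an alternative added after the data were seen, the spread in Control narrowed to 2.03 times. The order was then Cct5 (68.9 ± 0.938 SD), Cct8 (54.2 ± 1.88), Cct2 (54.0 ± 1.69), Tcp1 (53.6 ± 3.39), Cct6a (49.6 ± 3.15), Cct7 (44.8 ± 1.8), Cct4 (35.9 ± 1.56) and Cct3 (34.0 ± 2.04). Cct8, Cct2 and Tcp1 differed by less than their SD, and Cct4 and Cct3 by less than the SD of Cct3. In Reloading the spread was 1.82 times, with Cct3 raised to 61.8 ± 6.5 and Tcp1 at 58.6 ± 1.22. On this length Tcp1 ranked 4 of 8 in Control, 2 in Unloading and 7 in Reloading, while Cct5 ranked 1 in all 3 groups.

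**Figure D4:**
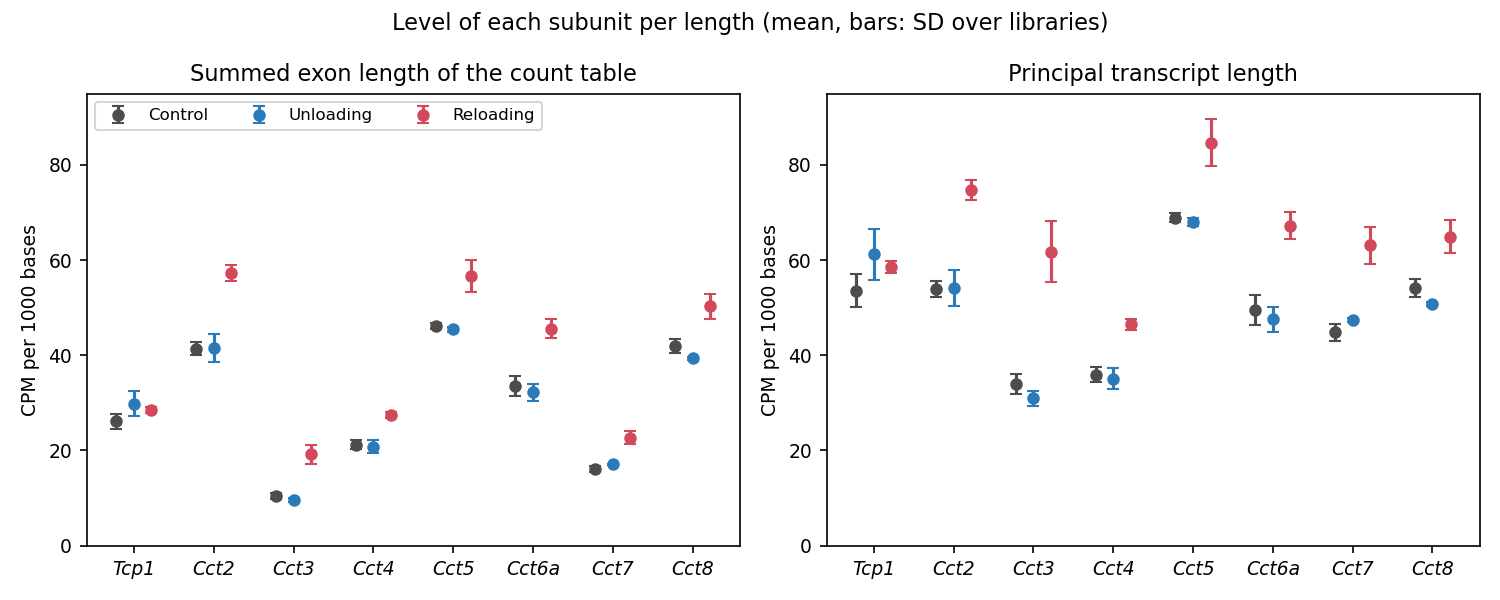
Level of each subunit in CPM per 1000 bases, mean with bars of 1 SD over the 4 Control, 2 Unloading and 3 Reloading libraries, using the summed exon length (left) and the principal transcript length (right). The order of the subunits depends on the length used, from a 4.37-fold to a 2.03-fold spread in Control, and on both lengths Cct5 is highest in Control and Cct3 lowest.

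Over the 9 libraries, 7 subunits varied nearly as one. The Pearson correlation of log2 CPM with the mean of the other 7 subunits was 0.942 to 0.988 for every subunit but Tcp1, for which it was 0.289. Between pairs of the 7 it ran from 0.87 for Cct7 with Cct8 to 0.98, and Tcp1 with any other subunit reached at most 0.36. The points share the 3 Reloading libraries, which set most of the range, and the correlation is a description.

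Some reads of the subunits could not be assigned without doubt, because the counting ignored strand and left out read pairs in exons shared with another gene. Tcp1 shares 571 exon bases, 11.35% of its exon length, with Acat3 and 141 with Mrpl18, both on the opposite strand. Cct6a shares 452 bases (12.49%) with Psph, Cct8 shares 192 (6.22%) with Usp16 and Cct7 shares 214 (3.16%) with Pradc1. The processed pseudogenes were low, at 3 to 13 read pairs a library for Cct3-ps1 and 0 to 8 for Tcp1-ps1, beside 568 to 1689 for Cct3 and 1262 to 2571 for Tcp1. Part of the reads of a pseudogene copy cannot be told apart from those of the parent gene.

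None of the tested TRiC cofactors was called higher in Reloading than in Unloading. Of the 11 listed genes, which encode prefoldin subunits, phosducin-like proteins and related partners, 10 were tested, and for Reloading against Unloading 5 fell, with a median log2 fold change of -0.21 beside 0.03 over all genes, of which 18.5% rose and 19.0% fell. The count of 5 went to 3 without Unloading 1, Unloading 2 or Reloading 2, and to 1 with library totals alone. Pdcd5, a small protein that binds TRiC, fell from 104 and 107 CPM to 67.2, 73.3 and 81.2 CPM (log2 fold change -0.52 ± 0.09 SE, edgeR adjusted p = 0.000288). Pdcl, a phosducin-like cofactor in the folding of G protein beta subunits, had the highest value of the list at 0.09 ± 0.13 (adjusted p = 0.626). For Unloading against Control 0 of the 10 were called. Against Control 5 were lower in Reloading, where 21.3% of all tested genes were, or 0 lower and 2 higher with library totals alone.

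The clients themselves moved in their own ways. On reloading 5 of 6 actin genes rose over Unloading, where 18.5% of all tested genes did, from Actb and Actg1 of the non-muscle cytoskeleton to Acta2 of smooth muscle, which went from 19.3 and 20.7 CPM to 54.2, 52.1 and 58.8 CPM (1.46 ± 0.10, edgeR adjusted p = 1.05e-07). Actc1, the cardiac sarcomeric actin, and Actg2, the enteric smooth muscle actin, rose from their Unloading level and stayed below Control, with group means of 325, 80.5 and 179.9 CPM for Actc1 and 10.8, 4.28 and 7.14 CPM for Actg2 in Control, Unloading and Reloading. Against Control 3 actins were higher and 3 lower in Reloading, beside 22.1% and 21.3% of all tested genes. In Unloading 3 were lower and 0 higher, beside 5.50% and 4.40% of all tested genes. Acta1, the sarcomeric actin of adult muscle and by far the most abundant, was at 25679 to 31029 CPM in Control, 16413 and 18635 CPM in Unloading and 14941 to 16585 CPM in Reloading. It fell by 0.68 on the log2 scale with unloading (adjusted p = 0.000698), and its change on reloading, -0.14 ± 0.09 (adjusted p = 0.251), was not called and turned to 0.10 with library totals alone.

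Of 20 tubulin genes 17 were tested, and on reloading 11 rose and 1 fell, where 18.5% and 19.0% of all tested genes did. Their median was 0.75, beside 0.03 over all tested genes. Tubb3 had the largest fold at trace level, 0.15 and 0.164 CPM in Unloading (2 and 3 read pairs) and 0.886, 1.59 and 0.795 CPM in Reloading (log2 fold change 2.72 ± 0.63, edgeR adjusted p = 0.00334), and its values in Control, 0.113 to 0.746 CPM, reached close to those of Reloading. Tubg2, a gamma-tubulin of the microtubule-organizing centre, fell from 2.40 and 2.24 CPM to 1.06 to 1.29 CPM (-0.98 ± 0.27, adjusted p = 0.00938), a call lost without Unloading 1 and under the DESeq2 Wald test (-1.02). Of the 7 tubulin cofactors, which assemble the tubulin dimer after TRiC has released it, 0 rose and 2 fell, beside 18.5% and 19.0% of all tested genes, and the count of 2 went to 0 without Unloading 2, to 1 without Unloading 1, Reloading 2 or Reloading 3 and to 3 without Reloading 1. Tbcc had the highest value, 0.34 ± 0.18 (adjusted p = 0.162), and Tbcel the lowest, -0.36 ± 0.12 (adjusted p = 0.0346), and with library totals alone 1 was called higher and 0 lower.

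Among 14 further proteins known or proposed to fold on TRiC, 11 were tested. On reloading 2 rose and 1 fell, where 18.5% and 19.0% of all tested genes did, and with library totals alone 7 rose and 0 fell. Stat3, a transcription factor of cytokine signalling, went from 45.7 and 42.0 CPM to 97.1, 92.5 and 77.6 CPM (1.02 ± 0.10, edgeR adjusted p = 2.58e-06). Hdac3, a histone deacetylase, fell from 74.7 and 72.6 CPM to 54.8, 54.4 and 56.4 CPM (-0.42 ± 0.08, adjusted p = 0.00081), and was not called with library totals alone.

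Among other chaperone systems, 17 of the 20 genes of the cytosolic HSP70 and HSP90 system rose and 1 fell on reloading, where 18.5% of all tested genes rose and 19.0% fell, and their median was 1.11. Hspa1b, the inducible HSP70, went from 1.50 and 1.48 CPM to 219, 186 and 148 CPM (log2 fold change 6.94 ± 0.20, edgeR adjusted p = 2.21e-11). Dnaja2, an HSP70 co-chaperone, fell from 292 and 306 CPM to 217, 234 and 256 CPM (-0.34 ± 0.09, adjusted p = 0.00586), but was not called with library totals alone. The mitochondrial chaperonin, a separate folding chamber of bacterial descent, also rose: Hspe1 went from 56.9 and 59.6 CPM to 155, 124 and 108 CPM (1.15 ± 0.12, adjusted p = 5.55e-06) and Hspd1 from 163 and 166 CPM to 280.1, 244 and 223 CPM (0.59 ± 0.10, adjusted p = 0.000223).

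Reloading 1 held the highest value of its group for Hspa1b, Hspe1 and Hspd1, as it did for every TRiC subunit except Cct4 (113, 118 and 114 CPM in Reloading 1, 2 and 3). The nascent chain complex, which meets proteins at the ribosome, split: Naca rose (0.36 ± 0.08, edgeR adjusted p = 0.00332) and Btf3 fell (-0.31 ± 0.08, adjusted p = 0.00534, not called with library totals alone). Both values are for Reloading against Unloading. Compared with Control, Naca was again called higher in Reloading (0.45 ± 0.07, edgeR adjusted p = 0.000104), while Btf3 was not called (-0.09 ± 0.07, adjusted p = 0.292).

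Of the chaperonin-like genes, Cct6b, the testis form of the zeta subunit, was at 1.65 and 0.929 CPM in Unloading and 3.55, 2.53 and 2.45 CPM in Reloading (1.17 ± 0.30, edgeR adjusted p = 0.00738). Its call was lost without Unloading 2 (0.77). In Control Cct6b was at 1.35 to 2.21 CPM, and Reloading against Control was not called (0.59 ± 0.24, edgeR adjusted p = 0.0632). Mkks, Bbs10 and Bbs12 form a chaperonin-related complex that helps to assemble the BBSome of the primary cilium. On reloading their log2 differences were 0.17 ± 0.14, -0.42 ± 0.32 and 0.07 ± 0.35, and none was called. Mkks was lower in Unloading than in Control (-0.58 ± 0.13, adjusted p = 0.0132), a call that was lost without Unloading 1 (edgeR adjusted p = 0.116) or Unloading 2 (adjusted p = 0.0704). Cct8l1 had 0 to 2 read pairs a library and was not tested.

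**Figure D5:**
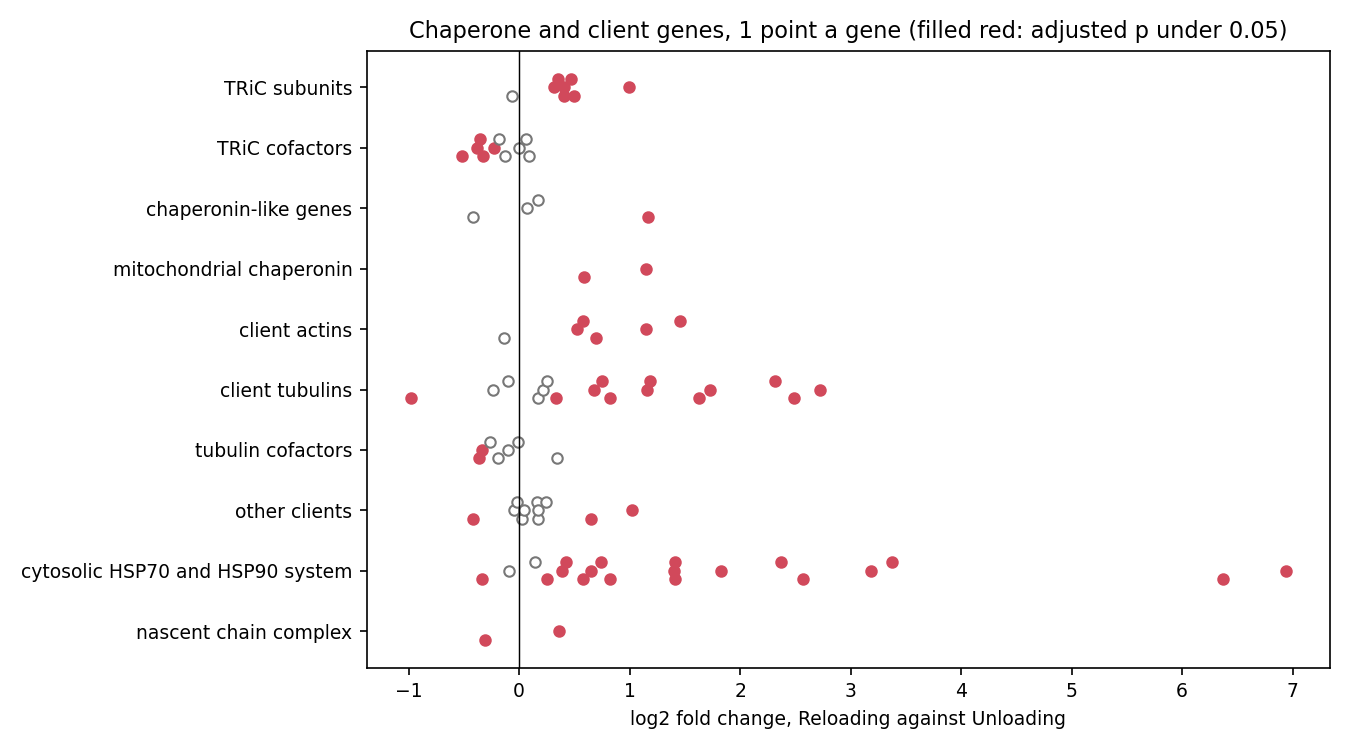
Log2 fold change from Unloading to Reloading (horizontal axis) of each tested gene, 1 point a gene, in 10 lists of chaperones and clients, filled red where the adjusted p was under 0.05. The TRiC subunits cluster between 0.32 and 0.50 apart from Cct3 (0.99) and Tcp1 (-0.06, or 0.185 with library totals alone), the cofactors lie between -0.52 and 0.09, and the HSP70 and HSP90 system spreads up to 6.94.

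By correlation over the 9 libraries with the mean centred log2 CPM of the 8 subunits, the 5 nearest of 3601 well-expressed genes were Hspa5 (r = 0.997), Klhl41 (0.995), Myh9 (0.994), Plpbp (0.993) and Rrp12 (0.991). Hspa5 encodes the HSP70 of the endoplasmic reticulum, Klhl41 a stabiliser of sarcomeric thin filaments, Myh9 a non-muscle myosin, Plpbp a pyridoxal phosphate binding protein and Rrp12 a ribosome export factor. All 5 rose on reloading, by log2 fold changes of 1.49, 1.10, 1.82, 0.62 and 1.32, which were larger than the subunit median of 0.41. They were chosen for this likeness, and their values are a description.

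Summed markers of several other cell types moved with the same groups. The summed level of 10 macrophage markers was 71.0 to 86.2 CPM in Control, 72.1 and 72.7 CPM in Unloading and 151 to 170.0 CPM in Reloading, with none at 0 in all libraries. A large part of this rise came from Cd68, at 3.59 and 2.51 CPM in Unloading and 42.9, 50.4 and 44.4 CPM in Reloading (15.3-fold). The smallest rise of the list over Unloading was 1.49-fold, for Lyz2. In Reloading 9 of the 10 markers were called higher than in Unloading and 7 of the 10 higher than in Control. Of all tested genes 18.5% and 22.1% were called higher in these comparisons. The 5 endothelial markers summed to 155 to 179.6 CPM in Control and Unloading and to 261 to 308 CPM in Reloading (4 of 5 higher in each comparison). The 4 smooth muscle markers summed to 41.4 to 47.2 and to 97.3 to 113 CPM (4 of 4 in each). The 6 proliferation markers summed to 29.2 to 32.9 CPM and to 41.7 to 44.9 CPM, with Ccnb1 and Cdk1 below 1 CPM in every library. In Reloading 4 of the 4 tested were called higher than in Unloading, but only 1 of the 4 higher than in Control.

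The 4 satellite cell markers summed to 18.5 to 31.4 CPM in Control and Unloading and to 37.3 to 40.9 CPM in Reloading, with 2 of 4 higher. These were Myod1 and Myog, with log2 fold changes over Unloading of 1.30 and 1.40. Pax7 (-0.15) and Myf5 (-0.33) went the other way and were not called. The 5 fibroblast markers, 423 to 671 CPM in Control and Unloading and 582 to 785 CPM in Reloading, overlapped. Of these 2 rose and 2 fell against Unloading, and 1 was higher and 0 lower against Control. The 5 neutrophil markers stayed at 0.357 to 5.75 CPM with overlap, and Ly6g and Retnlg, which define these cells, were below 1 CPM throughout. The 8 fibre markers went the other way, from 153407 to 168586 CPM in Control and Unloading to 108847 to 120584 CPM in Reloading. In Reloading 6 of 8 were called lower than in Unloading and 7 of 8 lower than in Control, beside 19.0% and 21.3% of all tested genes. The 7 keratinocyte markers ranged from 2.31 to 297 CPM and 0 of 7 were called. The part of these cells in the rise of the 7 subunits was not tested.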

How the data were processed

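Per the labels and the study's methods, poly-A RNA was sequenced and the authors aligned reads with STAR 2.7.3a to GRCm38.p6 and counted read pairs for every gene (featureCounts 2.0.3, strand ignored, Ensembl annotation) into the deposited table of raw counts. The authors also deposited DESeq2 tables, whose symbols named the genes; the mean signal column of these deposited tables (normalized counts), their fold changes and their p-values were not used. The labels say paired reads, the methods single reads.

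The test was edgeR 4.0.16 under R 4.3.3: filterByExpr (minimum count 10, minimum total 15), TMM factors, 1 quasi-likelihood fit over the 9 libraries with group as the only term, and two-sided F-tests adjusted by Benjamini and Hochberg over 14851 genes at a threshold of 0.05. The fit was tested on simulated data with changed genes drawn from all levels. At a log2 change of 1 it recovered 79.4% (Reloading against Unloading), 83.6% (Unloading against Control) and 81.5% (Reloading against Control) of them. At a log2 change of 0.5 it recovered 28%, 45.6% and 43.7% in the same order, so many changes of that size were missed. DESeq2 1.42.0, other scalings, filters and left-out libraries were alternatives. Log2 CPM used a prior count of 2. 1 read pair is worth 0.0510 to 0.1081 CPM before scaling.

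All 8 subunits were named. From every other list the highest and lowest tested member on reloading were named, with all members of lists of 5 or fewer genes, plus the 5 genes most like TRiC with a mean log2 CPM of at least 5. Actb, Actg1, Actc1, Actg2, Cd68, Lyz2, Ccnb1, Cdk1, Ly6g, Retnlg, Myod1, Myog, Pax7 and Myf5 were added after their values were seen. Members and lists were chosen with earlier results of these data known. Replicate numbers of the titles did not pair the libraries (correlations of deviations -0.201 to 0.075). For equal description numbers the correlation was 0.361 for Control 2 with Reloading 1, the 2 libraries with skin keratin transcripts. It was 0.143 and 0.155 for the other Control and Reloading libraries, and 0.017 to 0.075 where an Unloading library was involved. Whether the description numbers mark pairs is not stated, and the blocked value stands where it changed a call. No 2 libraries agreed within sampling noise (chi-square per degree of freedom 3.74 to 8.85).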

Additional observations from a re-analysis of the deposited data

How the results depend on the processing

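The 7 subunits called higher in each comparison with Reloading kept their direction and their call under all 19 alternatives each, as did the count of 0 for Unloading against Control. Leaving out 1 library gave subunit medians of 0.361 to 0.433 (Reloading against Unloading), 0.379 to 0.426 (Reloading against Control) and -0.073 to 0.012 (Unloading against Control). Library totals alone moved the medians to 0.656 (against Unloading) and 0.646 (against Control). Of all genes, 1470 were called for Unloading against Control, against 121 without Unloading 1, 949 without Control 3 and 2022 with no filter on low counts.

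Signs turned only for values that were not called. Under library totals alone Tcp1 (0.185) and Acta1 (0.104) turned for Reloading against Unloading, and Cct2 (-0.006) for Unloading against Control. With no filter Cct4 (0.001) and Cct5 (0.018) turned for Unloading against Control. With the replicate block by title numbers Bbs12 (-0.067, Reloading against Unloading) and Cct2 (-0.027, Unloading against Control) turned. With the replicate block by description numbers Tcp1 (0.031), Pdcl (-0.022), Bbs12 (-0.018) and Cct2 (-0.031) turned in the same comparisons, and Tcp1 was called higher than in Control (0.173). With that block Tbcel (-0.27) lost its call as well, while Tbcel also lost it under the block by title numbers (-0.31).

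Leaving out 1 library, log2 changes on reloading ran from -0.159 to 0.024 for Tcp1 and -0.136 to 0.25 for Bbs12, and on unloading from -0.067 to 0.072 for Cct2 and -0.097 to 0.029 for Cct4. Differences of shares, in percentage points, ran from -0.348 to 0.583 for Cct2, -0.358 to 0.0219 for Cct4 and -0.761 to 0.465 for Cct5 (Unloading against Control), from -0.0435 to 0.42 for Cct4 and -0.0763 to 0.335 for Cct7 (Reloading against Unloading), and from -0.206 to 0.252 for Cct4 (Reloading against Control). The calls of Cct6b (0.766), Naca (0.26) and Dnaja2 (-0.317) were lost without Unloading 2, that of Tubg2 without Unloading 1 (-0.945) and under DESeq2 (-1.018), that of Mkks on unloading without either Unloading library (-0.6 and -0.54), and that of Tbcel without either Unloading library, Reloading 2 or Reloading 3. The causes were not tested. With 2 Unloading libraries small changes were at the limit of what could be resolved.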
